A study of Homo sapiens with 14 samples.

Results

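The neuroendocrine and neuronal markers UCHL1, ENO2, CHGA, CHGB, SYP, SCG2, SCG5, NCAM1 and CALB1 were followed across 7 human prostate cancer cell lines measured in 14 single-colour expression arrays. They were chosen by name, as genes used to recognise neuroendocrine or neuronal cells, with earlier results of these data known. They are 9 of the 18372 genes measured. Each was read by 1 probe set that carried its symbol alone.

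Each line had 2 arrays, from separate passages in culture, and all lines grew in the same medium, DMEM with fetal bovine serum and gentamicin. PC3 and DU-145 are established human prostate carcinoma lines, from a bone and a brain metastasis. Of the 5 lines of PC3 background, PC3-ML (Clone 1) and PC3-ML (Clone 3), below Clone 1 and Clone 3, each grew from a single PC3-ML cell. PC3-ML is a PC3 subline, PC3-N(PDGFRα) is PC3-N carrying extra alpha-type receptor for platelet-derived growth factor (PDGFRα), and PC3-N is the unmodified subline. The 2 lines of DU-145 background are DU-145 (PDGFRα), which overexpresses the same receptor, and unmodified DU-145. No control line that had gone through the same handling without the receptor was analysed here. The labels call Clone 1, Clone 3, PC3-ML and PC3-N(PDGFRα) bone metastatic, and PC3-N and both DU-145 lines not.

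Neuroendocrine cells are scattered secretory cells of the prostate epithelium that share genes with neurons, and prostate adenocarcinoma can take on a neuroendocrine state when androgen receptor signalling is lost or blocked. Pathologists recognise that state by proteins of the dense-core secretory granule (the granins CHGA, CHGB and SCG2), of the small synaptic-like vesicle (SYP, synaptophysin) and of the cell surface (NCAM1, also called CD56). SCG5, or 7B2, is the granule chaperone of the prohormone convertase PCSK2. ENO2 is the gamma, or neuron-specific, subunit of the glycolytic enzyme enolase, and UCHL1 (PGP9.5) is a deubiquitinating enzyme very abundant in neurons. CALB1 encodes calbindin-D28k, a calcium buffer of neurons and of vitamin D-responsive kidney epithelium.

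Promoter windows of 250 bases before a transcript start were read from the RefSeq promoter table (GRCh38.p14) for 5 of the 9 members. For CHGA that start lies inside the span RefSeq lists for the gene, which begins further upstream, so the CHGA window is within the listed gene and its distances count from the table's start. The 3 printed here belong to a member above background in the DU-145 lines, one graded among PC3 lines and one at background in every line. Capitals mark every match, on either strand, of the letters TGACGTCA (the cyclic AMP response element), of its first 5 letters TGACG, which overlap it, and of TATAA. TGACGTCA occurs in 1.65% of the 35116 windows of this length in that table, TGACG in 21.2% and TATAA in 18.9%.
UCHL1, chr4:41256678-41256927, plus strand: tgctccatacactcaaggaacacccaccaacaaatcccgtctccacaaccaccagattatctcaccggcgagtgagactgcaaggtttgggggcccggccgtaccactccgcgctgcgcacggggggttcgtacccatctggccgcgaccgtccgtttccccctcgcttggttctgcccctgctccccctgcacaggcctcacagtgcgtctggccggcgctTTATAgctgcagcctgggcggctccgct
SCG5, chr15:32641460-32641709, plus strand: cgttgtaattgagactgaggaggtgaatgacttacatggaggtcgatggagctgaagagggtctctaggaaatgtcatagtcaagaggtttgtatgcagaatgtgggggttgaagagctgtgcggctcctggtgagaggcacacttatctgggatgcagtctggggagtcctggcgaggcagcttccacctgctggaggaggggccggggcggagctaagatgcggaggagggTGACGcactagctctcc
CHGA, chr14:92922900-92923149, plus strand: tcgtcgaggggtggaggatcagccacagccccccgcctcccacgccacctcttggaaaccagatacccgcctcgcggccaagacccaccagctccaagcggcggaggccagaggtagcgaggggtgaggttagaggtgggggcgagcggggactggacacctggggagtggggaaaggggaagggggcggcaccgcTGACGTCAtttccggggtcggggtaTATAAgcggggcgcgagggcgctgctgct
The UCHL1 window held 1 match of TATAA, on the opposite strand, and none of TGACG. The SCG5 window held 1 match of TGACG, 17 bases before the start. The CHGA window held TGACGTCA 54 bases before the start and TATAA 29 bases before it. The ENO2 and SYP windows held none of the 3. The windows also differed in CG dinucleotides, with 20 in UCHL1, 8 in SCG5, 21 in CHGA, 30 in ENO2 and 31 in SYP, against a median of 11 over all windows. A match is a description of the letters, and no binding or methylation was measured in these lines. No window was analysed for CALB1, CHGB, SCG2 or NCAM1, and whether the promoter table held one is not reported here.

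The deposited intensities ran from 18.5 to 8654, with array medians of 29.9 to 31.6. Because the array gives no detection call, the 359 olfactory receptor genes served as a scale for background. Whether these lines use any of them was not tested. The 95th percentile of these genes lay between 26.7 and 28.9 on the 14 arrays. Values near that level are compressed, so a fold change against a line at background is a low estimate. The 2 arrays of a line correlated at 0.989 to 0.996 across genes, different lines of the same origin at 0.972 to 0.993, and PC3 with DU-145 arrays at 0.926 to 0.948. A p-value from 2 passages a line measures the difference against the spread between passages. As a check of identity, CTNNA1 (alpha-catenin), a gene that PC3 has lost by deletion, read 22.3 to 24.9 on the 10 PC3 arrays and 138.0 to 282.2 on the 4 DU-145 arrays. Of 8 luminal epithelial markers 6 were above the olfactory receptor range on every array, and EPCAM read at least 434.1 on all 14.

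Of the 9 members, 3 varied over the 7 lines (UCHL1, CALB1 and SCG5; limma moderated F test, adjusted p under 0.05), beside 38.0% of all genes, so the share of members was not above the background. What set UCHL1 and CALB1 apart was the size of the variation. Line means of CALB1 spanned 6.65 log2 units and those of UCHL1 5.96, against a median span of 0.31 over all genes, and 99.99% and 99.98% of genes spanned less. These ranks are descriptions, since the members were chosen with earlier results of these data known. SCG5 spanned 0.68 and ENO2 0.52 units, and the other 5 members 0.06 to 0.19.

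**Figure D1:**
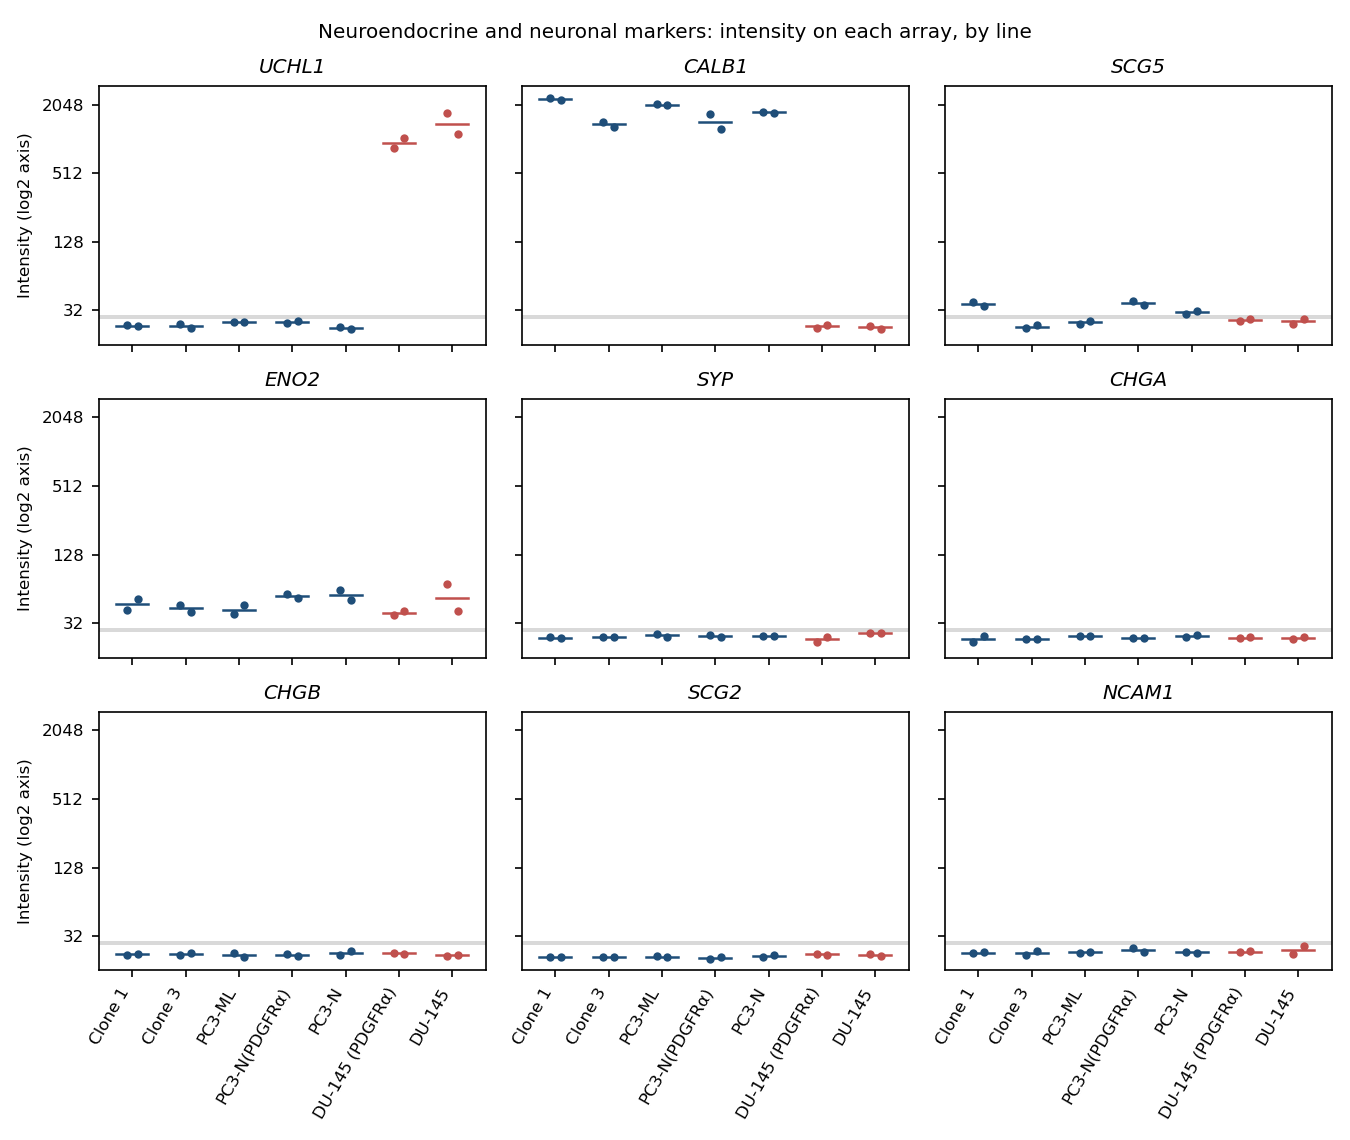
Intensity (log2 axis) of each of the 9 members on both arrays of the 7 lines; points are arrays, bars are line means on the log2 scale, PC3 lines are blue, DU-145 lines red, and the grey band is the range over arrays of the olfactory receptor 95th percentile (26.7 to 28.9). UCHL1 stands out of background in both DU-145 lines, CALB1 in the 5 PC3 lines, and CHGA, CHGB, SYP, SCG2 and NCAM1 in no line.

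The granin, vesicle and surface markers CHGA, CHGB, SCG2, SYP and NCAM1 were at background in every line. CHGA, a granin used as a serum marker, read 21.9 to 25.0 on the 10 PC3 arrays (median 23.9) and 23.0 to 24.3 on the 4 DU-145 arrays (median 23.9). CHGB, another granin, read 21.1 to 23.5 and 21.6 to 22.9 on the same sets of arrays, and SCG2, a precursor of secretoneurin, 20.3 to 22.0 and 21.5 to 22.3. SYP, the integral protein of small synaptic vesicles, read 23.6 to 26.0 on PC3 arrays and 22.0 to 26.4 on DU-145 arrays. NCAM1, the neural cell adhesion molecule, read 22.1 to 25.0 and 22.3 to 26.4. None of these 5 genes exceeded the olfactory receptor 95th percentile on any of the 14 arrays, and PC3 and DU-145 arrays overlapped for each. A transcript at a level below this range would not have been detectable.

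ENO2 was the only member above the olfactory receptor range on all 14 arrays, and at a low level. It read 41.9 and 52.5 in Clone 1, 46.6 and 39.8 in Clone 3, and 38.5 and 46.0 in PC3-ML. The PC3-N(PDGFRα) arrays read 57.8 and 53.5 and the PC3-N arrays 62.7 and 51.1. The DU-145 (PDGFRα) arrays read 37.6 and 41.3 and the DU-145 arrays 70.0 and 41.3. The 2 passages of DU-145 differed most, with the highest of all values in replicate 1, and every line overlapped its neighbour when lines were ordered by mean. The F test over lines gave a limma adjusted p of 0.322, and 0.0256 without DU-145 replicate 2. Its lowest adjusted p among the comparisons of single lines was 0.432.

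UCHL1 was present in the DU-145 lines and at background in the PC3 lines. It read 22.0 to 25.7 on the 10 PC3 arrays, with a median of 24.0, and no PC3 array exceeded the olfactory receptor range. In DU-145 (PDGFRα) it read 852.9 and 1045, and in DU-145 1715 and 1122, so the groups were far apart and all 4 DU-145 arrays were high. The mean of PC3 lines minus that of DU-145 lines was −5.58 log2 units (SE 0.10, limma adjusted p = 1.80e-10), a measured 48.0-fold difference, which is a low estimate because the PC3 lines lay at background. With the 7 line means as units, so that the spread is that between lines, the adjusted p was 7.21e-06.

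CALB1 had the opposite distribution. It read 2349 and 2224 in Clone 1, 1445 and 1306 in Clone 3, and 2058 and 2018 in PC3-ML. It read 1677 and 1255 on the PC3-N(PDGFRα) arrays and 1773 and 1740 on the PC3-N arrays, against 22.6 and 23.6 in DU-145 (PDGFRα) and 23.3 and 22.1 in DU-145. All 10 PC3 arrays were high and all 4 DU-145 arrays lay within the olfactory receptor range. The PC3 lines were higher by 6.25 log2 units (SE 0.07, limma adjusted p = 7.89e-12; 2.13e-05 on line means), a measured ratio of 76.3 that is again a low estimate.

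SCG5 differed among the PC3 lines rather than between backgrounds. It read 38.0 and 34.9 in Clone 1, 22.2 and 23.9 in Clone 3, and 24.2 and 25.9 in PC3-ML. On the PC3-N(PDGFRα) arrays it read 38.6 and 35.3, and on the PC3-N arrays 29.8 and 31.6. It read 25.8 and 27.0 in DU-145 (PDGFRα) and 24.2 and 26.9 in DU-145. Clone 1, PC3-N(PDGFRα) and PC3-N were above the olfactory receptor range on both arrays, and the other 4 lines on neither. In order of level PC3-N(PDGFRα) and Clone 1 overlapped, PC3-N stood below both and above the rest, DU-145 (PDGFRα), DU-145 and PC3-ML overlapped their neighbours, and Clone 3 was lowest. The mean of PC3 lines was 0.20 log2 units above that of DU-145 lines (SE 0.05, limma adjusted p = 0.0055), although PC3 arrays ran both above and below the DU-145 arrays, and with line means as units the adjusted p was 0.559.

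Between backgrounds, then, 3 of 9 members were called, CALB1 and SCG5 higher and UCHL1 lower in PC3 lines, beside 38.8% of all genes. The median change of the members was 0.00 log2 units and that of all genes −0.01. These lines share parents, so the 5 PC3 lines are not 5 independent samples of PC3.

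Between the clones and their parent, CALB1 and SCG5 were the members that moved. Against PC3-ML, Clone 1 had SCG5 higher by 0.54 log2 units (SE 0.08, limma adjusted p = 0.0017), the only call among 9 members beside 13.8% of genes. Clone 1 had CALB1 at 0.17 above PC3-ML (adjusted p = 0.436), which was not called. Clone 3 had CALB1 lower than PC3-ML, by −0.57 log2 units (SE 0.11, limma adjusted p = 0.014), likewise the only call among 9 members, beside 8.10% of genes. That call was lost without PC3-ML replicate 1 (adjusted p = 0.101) and without Clone 3 replicate 2 (0.0938). SCG5 in Clone 3 was −0.12 from PC3-ML and not called (adjusted p = 0.477).

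Clone 1 had both genes higher than Clone 3, CALB1 by 0.73 (SE 0.11, limma adjusted p = 0.0027) and SCG5 by 0.66 log2 units (SE 0.08, adjusted p = 7.37e-04), 2 of 9 members beside 10.5% of genes. For both genes the arrays of the clones did not overlap. These 3 comparisons share samples: each clone is set against the same PC3-ML arrays and against the other.

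PC3-ML against PC3-N, the bone-metastatic subline against the one that is not, gave 0 of 9 members called by limma, beside 0.348% of genes, and 1 member, SCG5, at an unadjusted p under 0.05. SCG5 read 24.2 and 25.9 in PC3-ML against 29.8 and 31.6 in PC3-N, a change of −0.30 (SE 0.08, adjusted p = 0.186) with arrays that did not overlap. CALB1 was 0.21 higher as measured (adjusted p = 0.579) and ENO2 −0.43 (adjusted p = 0.573).

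Overexpression of the receptor was followed by no member call in either background. PC3-N(PDGFRα) against PC3-N had 0 of 9 called beside 2.20% of genes, with SCG5 at 0.27 (SE 0.08, limma adjusted p = 0.137) and CALB1 at −0.28 (SE 0.11, adjusted p = 0.304) the 2 members at an unadjusted p under 0.05. Without PC3-N(PDGFRα) replicate 1, where CALB1 read 1677, the change of CALB1 was −0.48. Replicate 2 read 1255, and 1677 was nearer to the 1773 and 1740 of PC3-N. The size of this fall thus rested mainly on replicate 2. DU-145 (PDGFRα) against DU-145 had 0 of 9 called beside 0.310% of genes, with 2 at an unadjusted p under 0.05. These were UCHL1, at −0.56 (SE 0.16, adjusted p = 0.181), and SYP, at −0.19 within the background range (adjusted p = 0.190). UCHL1 on both DU-145 (PDGFRα) arrays (852.9 and 1045) was under both DU-145 arrays (1715 in replicate 1 and 1122 in replicate 2). Replicate 2 was the nearer of these, and the change was −0.86 without it. The size of the fall thus depended on which DU-145 array was kept.

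The difference between the 2 receptor effects was tested directly and called for 0 of 9 members, beside 0.533% of genes, with UCHL1 (0.73, limma adjusted p = 0.223) and SYP (0.19, adjusted p = 0.364) at an unadjusted p under 0.05. UCHL1 lay at background in both PC3-N lines, where no fall could be seen. Without DU-145 replicate 2 the UCHL1 difference was 1.03, with the higher DU-145 array alone (1715) as the reference. Its size likewise depended on which DU-145 array was kept.

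**Figure D2:**
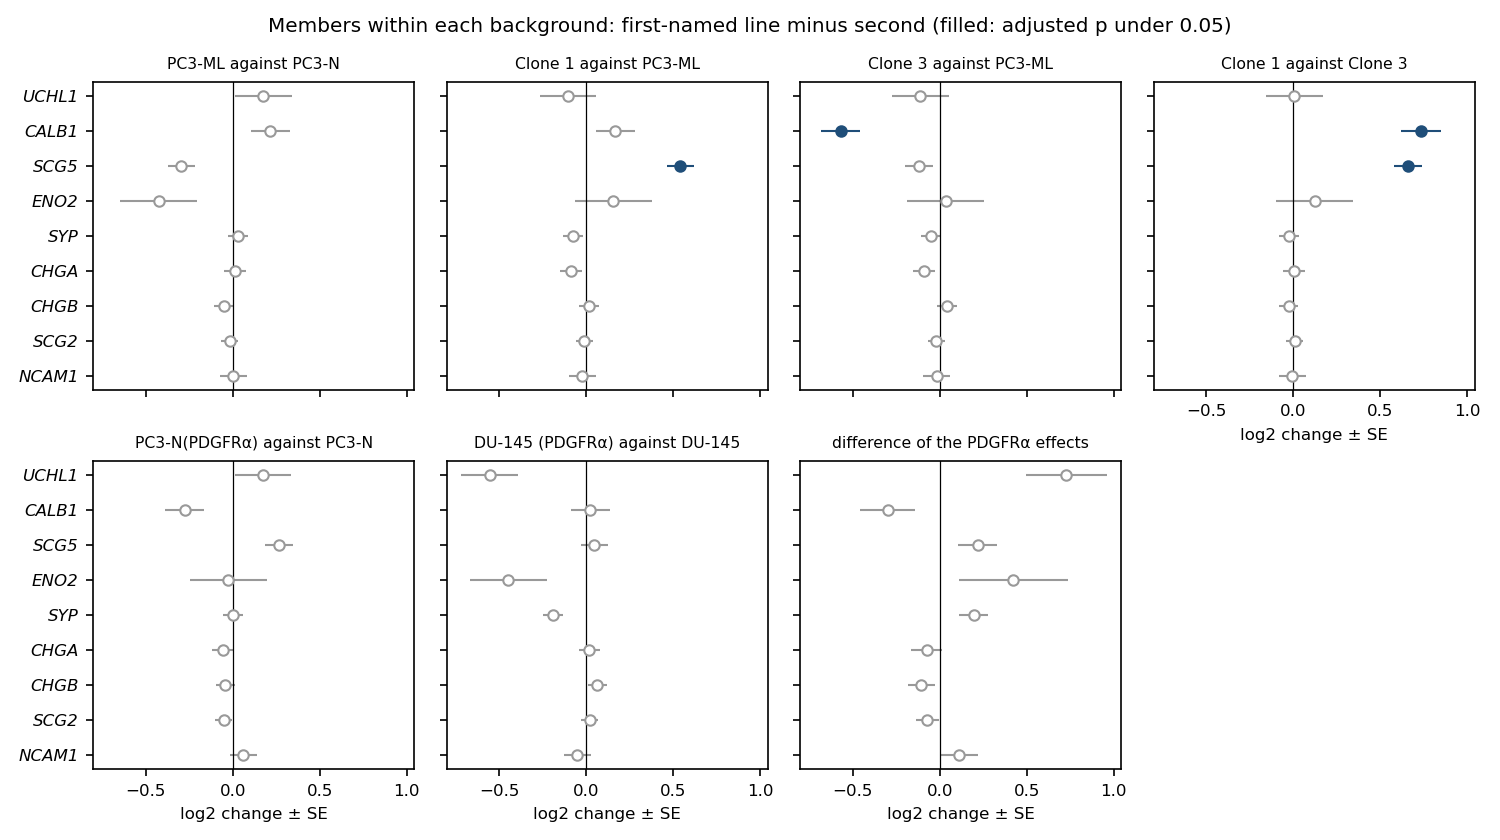
Log2 change ± SE of each member in the 7 comparisons within a background, first-named line minus second; the panel of the difference shows the PC3-N effect of the receptor minus the DU-145 effect, and filled points passed an adjusted p of 0.05. The 4 filled points are CALB1 and SCG5 in comparisons of the clones.

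Set against the 3 other lines, on line means, the 4 bone-metastatic lines showed no call. Limma called 0 of 9 members and 0% of genes, with 2 members and 2250 of 18372 genes at an unadjusted p under 0.05. The 2 members were CALB1 (4.17, SE 1.57, adjusted p = 0.405) and UCHL1 (−3.67, SE 1.42, adjusted p = 0.405). All 4 bone-metastatic lines are PC3 lines, and 2 of the 3 others are DU-145 lines, so the label and the background can only be told apart through PC3-N. PC3-N, not bone metastatic, read 22.6 and 22.0 for UCHL1 and 1773 and 1740 for CALB1, values of the PC3 kind.

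Other genes of the neuroendocrine and neuronal programs were read from partial lists, and each count between backgrounds stands beside the 38.8% of all genes called in that comparison. The granin, factor, neuropeptide, cytoskeletal, adhesion and calcium-binding lists each had a smaller share called than that, and the synaptic list a larger one. Of 12 measured granin and dense-core granule genes, SCG5 included, 2 were higher and 1 lower in PC3 than in DU-145 lines. On every array 5 of the 12 were within the olfactory receptor range and 5 above it. VGF (27.46 to 38.45) and PCSK1N (59.9 to 81.5) were among those above. CPE, the carboxypeptidase that trims prohormones, was higher by 0.63 (limma adjusted p = 1.48e-04, and adjusted p = 0.113 on line means), and PAM, the enzyme that amidates peptides, lower, at −0.58 (adjusted p = 6.96e-05). Clone 3 also had CPE higher than PC3-ML, at 94.1 and 97.8 against 49.7 and 53.3 (0.90, adjusted p = 0.0049). In Clone 1 CPE read 68.1 and 75.9 (0.48, limma adjusted p = 0.0481), a call kept under 8 of 20 alternatives. Of 11 synaptic vesicle and exocytosis genes 3 were higher and 3 lower, among them the plasma membrane syntaxin STX1A (0.79, and adjusted p = 0.0848 on line means) and the vesicle GTPase RAB3A (0.27) on the higher side. VAMP2, the vesicle SNARE (−0.25, and adjusted p = 0.446 on line means), and SV2A, a vesicle glycoprotein (−0.24), were lower, SV2A with 2 of 14 arrays above the olfactory receptor range. With quantile normalization VAMP2 was at −0.39. VAMP2 also differed among PC3 lines, with line means of 65.6 in Clone 1, 75.5 in Clone 3, 84.9 in PC3-N(PDGFRα), 97.5 in PC3-ML and 108.3 in PC3-N. The DU-145 and DU-145 (PDGFRα) means were 105.7 and 96.5. Against PC3-ML, Clone 1 had VAMP2 lower (−0.58, limma adjusted p = 0.0042). STX1A was lower in Clone 1 (−0.67, kept under 8 of 20 alternatives) and Clone 3 (−0.77, 11 of 20). Between backgrounds the median change was −0.02 for each of these lists, beside −0.01 for all genes.

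Of 11 transcription factors and co-regulators of the neuroendocrine state, 2 were higher in PC3 lines, FOXA2 (0.41, limma adjusted p = 4.61e-04, but 0.249 on line means) and the neural POU factor POU3F2 (0.27, lost under 4 alternatives including those without DU-145 replicate 1 or DU-145 (PDGFRα) replicate 2, adjusted p up to 0.0618), and 1 lower, NKX2-1 (−0.24, and −0.15 without DU-145 replicate 1; above the olfactory receptor range on 1 of 14 arrays), with a list median of 0.00. FOXA2 was lower than in PC3-ML in Clone 1 (−0.78, adjusted p = 0.0012) and in Clone 3 (−0.51, adjusted p = 0.017, lost without PC3-ML replicate 1 or either Clone 3 array, up to 0.131). REST, the repressor of neuronal genes in other tissues, read 184.5 to 268.7 on PC3 arrays and 197.9 to 209.5 on DU-145 arrays and was not called. INSM1 read 54.2 to 68.4 on PC3 arrays and 55.0 to 62.3 on DU-145 arrays and was not called either. Both genes were above the olfactory receptor range on every array.

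Neurofilaments, the intermediate filaments of axons, differed by subunit. NEFL, the light subunit, read 432.5 to 691.4 (median 509.5) on the 10 PC3 arrays, against 43.2 to 62.0 (median 55.5) on the 4 DU-145 arrays. Its change was 3.29 log2 units (SE 0.10, limma adjusted p = 4.27e-09). NEFM, the medium subunit, read 26.8 to 31.2 (median 28.5) on PC3 arrays and 118.7 to 225.7 (median 126.7) on DU-145 arrays, a change of −2.33 (SE 0.11, adjusted p = 1.37e-07). For both subunits the arrays of the backgrounds did not overlap, and NEFH, the heavy subunit, was not called. In all, 1 of 13 cytoskeletal and growth cone genes was higher and 2 were lower in PC3 lines, the third being INA, the alpha-internexin gene (−0.23), at or below the olfactory receptor range on every array. The list median was −0.01.

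Calretinin, encoded by CALB2 and related to calbindin, was lower in PC3 lines (−0.55, SE 0.06, limma adjusted p = 5.23e-05), at 23.6 to 27.8 on PC3 arrays and 32.9 to 42.5 on DU-145 arrays. CALB1 and CALB2 were the 2 of 8 neuronal calcium-binding genes called between backgrounds, 1 in each direction, with a list median of −0.02. Among 10 neuropeptides 0 were higher and 2 lower in PC3 lines, with a median of −0.03. GAL, the precursor of galanin, read 41.2 to 86.2 on PC3 arrays and 125.4 to 194.7 on DU-145 arrays (−1.46, SE 0.13, adjusted p = 7.80e-06), and ADCYAP1 changed by −0.09 within the background range, a call lost under 14 of 19 alternatives (adjusted p up to 0.181). Of 8 neural adhesion genes 1 was higher and 1 lower, with a median of −0.04. CADM1, a cell adhesion molecule of synapses and epithelia, fell by 0.91 (adjusted p = 6.12e-07) and NCAM2, the relative of NCAM1, was higher by 0.37 (adjusted p = 6.24e-04, and adjusted p = 0.215 on line means).

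**Figure D3:**
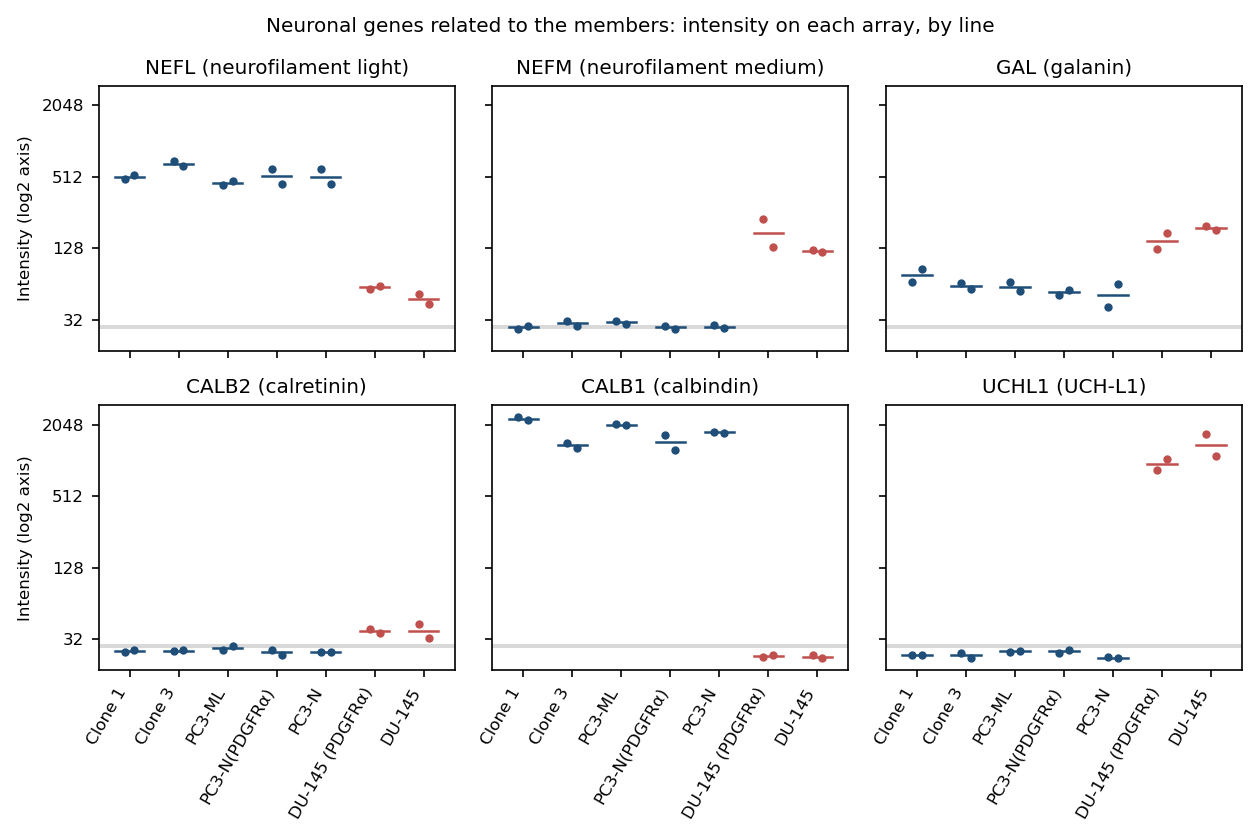
Intensity (log2 axis) on both arrays of each line for NEFL, NEFM, GAL and CALB2 beside the members CALB1 and UCHL1; points are arrays, bars line means on the log2 scale, PC3 lines blue, DU-145 lines red, and the grey band the olfactory receptor 95th percentile over arrays. NEFL and CALB1 are higher in the 5 PC3 lines, NEFM, GAL, CALB2 and UCHL1 in the 2 DU-145 lines.

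The relatives of UCHL1 and ENO2 were read as well. UCHL5, a proteasome-bound hydrolase, was 0.65 log2 units lower in PC3 than in DU-145 lines (−0.65, limma adjusted p = 3.01e-05, and adjusted p = 0.134 on line means) and UCHL3 was lower too (−0.37, adjusted p = 0.0219, and 0.375 on line means). Without DU-145 replicate 2 UCHL3 was at −0.20 and not called (adjusted p = 0.0615), and it also lost the call without either DU-145 (PDGFRα) array (adjusted p up to 0.0668). Within the PC3 lines, UCHL5 was higher than in PC3-ML in Clone 1 (0.69, adjusted p = 0.0034) and in Clone 3 (0.87, adjusted p = 0.0024), at 400.8 and 352.3 in Clone 1 and 429.9 and 422.7 in Clone 3 against 227.9 and 237.2 in PC3-ML. UCHL3 was lower in Clone 3 than in PC3-ML (−0.86, adjusted p = 0.0215, lost under 4 of 20 alternatives, up to 0.141). Both changes between backgrounds were smaller in size than the −5.58 of UCHL1, and both relatives were above the olfactory receptor range on every array. ENO1, the alpha subunit that most cells use for glycolysis, read 598.9 to 4946 on PC3 arrays and 997.0 to 1528 on DU-145 arrays. It was higher than in PC3-ML in Clone 1 (2.28, SE 0.28, adjusted p = 7.42e-04) and in Clone 3 (1.70, SE 0.28, adjusted p = 0.0061; 0.0503 without Clone 3 replicate 1 and 0.0834 with these lines alone), comparisons in which ENO2 stood at 0.16 and 0.03 and was not called. Between backgrounds ENO1 was higher in PC3 lines by 0.67 (adjusted p = 0.0086, and 0.506 on line means).

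Of 7 measured genes of the androgen receptor list 3 lay within the olfactory receptor range on every array and KLK3, which encodes prostate-specific antigen, read at most 29.6. The receptor gene itself was not analysed here. HOXB13, the prostate homeobox factor, was higher in PC3 lines (2.11, SE 0.15, limma adjusted p = 2.20e-06), at 85.3 to 259.9 on PC3 arrays and 29.0 to 39.9 on DU-145 arrays. It was the 1 gene of that list called between backgrounds.

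Markers of other cell types were called between backgrounds in smaller shares than the 38.8% of all genes, apart from the luminal list. Of 7 endothelial markers PECAM1 (1.44) and KDR (1.78) were higher in PC3 lines, and the summed level of the list was 245.5 to 401.9 on PC3 arrays and 196.5 to 202.0 on DU-145 arrays. CDH5, VWF and TEK were within the olfactory receptor range on every array. CLDN5 (39.0 to 55.6) and ENG (34.9 to 42.7) were above it on every array, and PECAM1 and KDR on the 10 PC3 arrays. Of 8 leukocyte markers 1 was called, CD79A (−0.15, and limma adjusted p up to 0.130 when single arrays were left out). The list summed to 248.2 to 325.4 on PC3 arrays and 265.3 to 318.0 on DU-145 arrays. PTPRC was within the olfactory receptor range throughout, and CD68 was above it on every array. The 10 fibroblast and stromal markers summed to 261.3 to 284.2 on PC3 arrays and 265.0 to 282.1 on DU-145 arrays. DCN, LUM, THY1, FAP and POSTN were within the olfactory receptor range on every array. Above it on every array were 3 collagen genes, COL1A1 (44.0 to 51.8), COL1A2 (31.83 to 39.95) and COL3A1 (28.0 to 31.7). Of 8 luminal epithelial markers 2 were higher in PC3 lines, among them the keratin KRT19 (0.68), and 4 lower, among them E-cadherin CDH1 (−1.56), EPCAM (−0.97) and the keratin KRT8 (−0.96), though EPCAM and KRT8 not on line means (adjusted p = 0.257 and 0.0841). The part of these markers in the results above was not tested.

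The genes most like UCHL1 and CALB1 were found by Pearson correlation of the 7 line means, among the 2080 other protein-coding genes that spanned at least 1 log2 unit. For UCHL1 they were PPP1R3C (r = 0.9998), PRXL2A (0.9997) and CTNNA1 (0.9997), each at 22.4 to 25.7 in all PC3 lines. PPP1R3C had line means of 62.5 in DU-145 (PDGFRα) and 67.8 in DU-145, PRXL2A of 103.2 and 123.5, and CTNNA1 of 173.9 and 210.6. For CALB1 they were RASSF8 (r = 0.9979), CDH11, a cadherin of mesenchymal and bone cells (0.9956), and DSEL (0.9947). CDH11 had line means of 711.5 to 855.8 in the PC3 lines and 27.3 to 27.8 in the DU-145 lines. Correlations above 0.99 were reached by 62 genes for UCHL1 and 14 for CALB1. UCHL1 and CALB1 themselves correlated at −0.995. Over 7 lines of 2 origins, such a value describes a split between the origins, and lines of one origin share most of their genome.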

How the data were processed

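Biotin-labelled RNA from 7 cell lines, 2 arrays each, was measured. The deposited values were intensities per probe set, made by the authors with RMA (per the submitters' processing notes; version, build and annotation not given in the sources used here), which corrects background, normalizes between arrays and summarises probes. They were on a linear scale, judged from the values, and were converted to log2 with no pseudocount. Of 28829 probe sets, 19291 carried exactly 1 symbol, 1735 several and 7803 none. The probe set with the highest mean stood for each of 18372 genes, across which all genes were tested with no filter. Limma 3.58.1 in R 4.3.3 fitted a mean per line to all 14 arrays (lmFit, contrasts.fit, eBayes; two-sided), and the bone label was tested on line means. Called means a Benjamini-Hochberg adjusted p under 0.05 over all genes. The script was tested on simulated data.

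Promoter windows came from RefSeq. The number of arrays limits the precision. The members, lists and rules were chosen with earlier results of these data known. Named genes were the 9 members, called list genes (at most 4 per list and comparison, by size) and the 3 genes most like each member that spanned 1 log2 unit, with up to 2 defining genes of a list at background. REST, INSM1, NEFH, VGF, PCSK1N and further markers of other cell types were named outside that rule, after their values were seen. Alternatives were a replicate block, quantile normalization, a filter on dim genes, eBayes with trend and robust, all probe sets, the compared lines alone, line means, and leaving out each array.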

Additional observations from a re-analysis of the deposited data

Results flagged for a closer look

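The difference between the receptor effects in the 2 backgrounds was called for 2 genes of the lists and for 0 of the 9 members. Of all genes, 0.533% were called in that test. Neither list gene kept its call under every alternative. GAP43, a growth cone protein, read 38.4 and 41.3 in PC3-N(PDGFRα) against 26.5 and 27.7 in PC3-N. The PC3-N values lay within the olfactory receptor range. GAP43 read 32.2 and 31.2 in DU-145 (PDGFRα) against 32.7 and 30.0 in DU-145. Its difference of effects was 0.54 log2 units (limma adjusted p = 0.0401, and up to 0.124 over the alternatives, of which 4 of 18 kept the call). The effect in PC3-N alone was 0.55 (adjusted p = 0.0039, and 0.113 with these lines alone). CD68, a lysosomal protein used as a macrophage marker, read 158.9 and 153.5 in PC3-N(PDGFRα) against 94.6 and 103.0 in PC3-N, and 93.3 and 116.4 in DU-145 (PDGFRα) against 142.2 and 123.1 in DU-145, a difference of 1.01 (limma adjusted p = 0.0305, and up to 0.118 over 19 alternatives, of which 10 kept the call).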

How the results depend on the processing

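Of the log2 changes of members recomputed under the alternatives, 1532 stayed on their side of the threshold, 4 passed it newly, 3 lost it and 0 called values changed sign. These exclude the F test over lines, where ENO2 passed without DU-145 replicate 2 (4 members called). UCHL1 and CALB1 kept their call between backgrounds in all 20 alternatives, with changes of −5.74 to −5.43 and 6.21 to 6.30. SCG5 lost its call between backgrounds on line means. With dim genes left out SCG5 is not tested, which left 0 members called in Clone 1 against PC3-ML and 1 in Clone 1 against Clone 3. With eBayes with trend and robust, SCG2 was called between backgrounds at −0.06, within the background range. Leaving out single arrays gave 0 to 1 members called in Clone 3 against PC3-ML, in PC3-N(PDGFRα) against PC3-N, in DU-145 (PDGFRα) against DU-145 and in the difference of receptor effects. The share of all genes called also moved when single arrays were left out: 0.0653% to 0.925% in PC3-ML against PC3-N, 2.35% to 9.35% in Clone 3 against PC3-ML, 0.386% to 2.72% in PC3-N(PDGFRα) against PC3-N, 0.0490% to 2.28% in DU-145 (PDGFRα) against DU-145, 6.60% to 15.2% in Clone 1 against PC3-ML, 5.54% to 11.6% in Clone 1 against Clone 3, and 0.142% to 1.36% in the difference of receptor effects. The cause was not tested. Between backgrounds it was 17.6% on line means and 62.2% with dim genes left out. Deviations of same-numbered arrays correlated at −0.20 to 0.25 over 21 pairs of lines, 5 of them over 0.1. These values do not decide whether the replicate numbers pair samples. With a replicate block 3 members were called between backgrounds and no member call changed. Every member had 1 probe set, so no second probe set could be read. Of the recomputed values of called list genes, 1060 kept the call and 180 lost it.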
